A study of Mus musculus with 2 samples.

Results

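The genes described here are 10 members of the fibroblast growth factor (FGF) system, the ligand genes Fgf1, Fgf2, Fgf7, Fgf9, Fgf10 and Fgf18 and the 4 receptor genes Fgfr1, Fgfr2, Fgfr3 and Fgfr4, out of 21775 protein-coding genes placed in the mouse genome. They were chosen by name and not by a cut on a measured value, but with earlier results of these data known. The peaks of both replicates were counted and placed in each gene body with 20 kb on either side, called the locus. The data are ATAC-seq peak lists, which mark DNA that Tn5 transposase could reach, from nuclei of hepatic stellate cells, pericytes that wrap the liver sinusoid and store vitamin A. The only group, sampled as replicates A and B, was healthy chow-fed control mice of strain C57BL6/JBomTac that carried Gt(ROSA)26Sortm1(mCherry-Rpl10a-Flop)Kra and Tg(Lrat-cre)1Rshw. In that model the Lrat promoter drives Cre, and nuclei were collected by their mCherry-RPL10A signal, so the material is what that transgene marked. With 1 group no condition was compared and no test was run. The labels do not say that A and B came from different animals, so their spread may be technical, and the entry names in the list of B begin with the word Oil, although its label gives chow and control.

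FGF ligands are secreted or released proteins that bind heparan sulfate and a receptor tyrosine kinase on the receiving cell. Ligand binding pairs the receptors, and the signal runs through the adaptor FRS2 and the RAS-MAP kinase cascade to ETS factors and to feedback inhibitors such as the Sprouty proteins. In the liver the best known arm is endocrine: the gut hormone FGF15 acts on hepatocytes through FGFR4 and its co-receptor beta-Klotho to restrain bile acid synthesis. FGF2 and FGF1 are mitogens for many mesenchymal cells, while FGF7 and FGF10 are made by mesenchyme and act on epithelial forms of FGFR2.

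In these nuclei the loci of the receptor genes and of Fgf1 and Fgf2 held 20 of the 22 peaks seen in both replicates, and those of Fgf9 and Fgf10 held none. A peak of A that shared at least 1 bp with a peak of B is called replicated, and the 10 loci together span 952 kb. There were 34 entries in A, or 24 when B was counted instead. An entry of either list lay in 8 of the 10 loci, against 73.2% of all protein-coding genes. At least 1 replicated peak lay in the same 8, against 64.9% of all protein-coding genes, and in the length bins of the members (10 equal bins of protein-coding genes) the share was 73.5% for Fgfr3 and Fgfr4, 75.2% for Fgf18, 76.1% for Fgf7, Fgf9 and Fgfr1 and 76.6% for Fgf1, Fgf2, Fgf10 and Fgfr2. The share of open loci among the members was thus near that of genes of like length. Peaks at a listed transcription start, within 500 bp, were replicated at 2 of the 3 receptor genes with a listed start (Fgfr2 and Fgfr3) and at 0 of the 5 such ligand genes, against 42.9% of the 17491 genes with a listed start. For the start of a gene of like length the share was 51.2% in the bin of Fgfr3 and Fgfr4, 56.3% in that of Fgf18, 55.4% in that of Fgf7, Fgf9 and Fgfr1 and 55% in the bin of the longest members. The start peak of Fgfr3 ranked below the middle of both lists, at percentiles 16.5 in A and 45.4 in B, and that of Fgfr2 at 35.2 in A and 71.0 in B. When only the upper 50% of entries by −log10 q was kept in each replicate, 0 of the 8 members with a listed start had a replicated peak there. For all genes, the share at a start was not computed at that threshold, and the 42.9% is of the full lists.

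**Figure D1:**
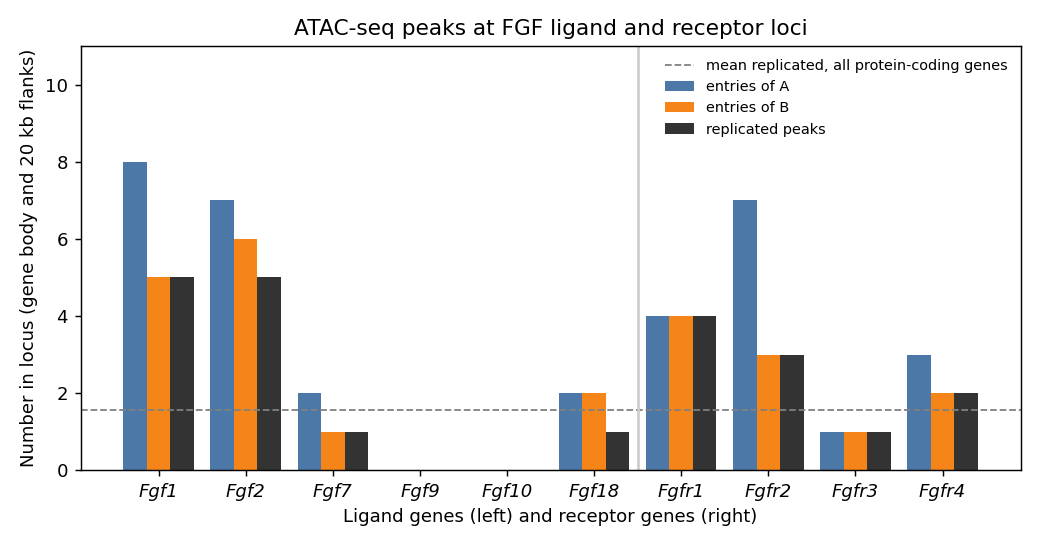
Number of peak entries in each locus (gene body and 20 kb on either side) in replicate A, in replicate B and replicated, by gene. Fgf1 and Fgf2 had 5 replicated peaks each and Fgfr1 had 4, Fgf9 and Fgf10 had no entry, and the dashed line is the mean of 1.56 replicated peaks over all protein-coding genes.

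Promoter sequence is shown for 5 members to set the start that a replicated peak covered, that of Fgfr3, beside starts whose upstream bases had none. Each line gives the 250 bases upstream of the listed start, 5′ to 3′ on the gene's strand, from RefSeq (GRCm38.p6, the assembly of mm10). Capitals mark bases under a replicated peak, and a line without capitals had none. The regions are chr5:33721474-33721723 on the plus strand for Fgfr3, chr7:130266809-130267058 on the minus strand for Fgfr2, chr13:55152568-55152817 on the plus strand for Fgfr4, chr11:33147401-33147650 on the minus strand for Fgf18 and chr13:118714449-118714698 on the plus strand for Fgf10.
Fgfr3: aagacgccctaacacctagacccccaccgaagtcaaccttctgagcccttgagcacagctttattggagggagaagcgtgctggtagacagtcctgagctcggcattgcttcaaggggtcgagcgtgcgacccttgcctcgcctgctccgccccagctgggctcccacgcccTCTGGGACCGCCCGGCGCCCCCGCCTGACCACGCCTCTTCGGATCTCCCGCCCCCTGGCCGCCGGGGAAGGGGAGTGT
Fgfr2: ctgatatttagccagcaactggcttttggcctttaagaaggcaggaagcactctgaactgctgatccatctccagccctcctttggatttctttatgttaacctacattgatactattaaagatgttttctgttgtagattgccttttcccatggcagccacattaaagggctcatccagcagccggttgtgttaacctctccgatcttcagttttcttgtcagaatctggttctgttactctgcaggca
Fgfr4: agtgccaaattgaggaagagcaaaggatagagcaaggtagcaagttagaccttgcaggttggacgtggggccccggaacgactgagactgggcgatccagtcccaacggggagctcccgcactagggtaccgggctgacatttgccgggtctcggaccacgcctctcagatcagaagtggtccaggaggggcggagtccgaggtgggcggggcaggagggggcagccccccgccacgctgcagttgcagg
Fgf18: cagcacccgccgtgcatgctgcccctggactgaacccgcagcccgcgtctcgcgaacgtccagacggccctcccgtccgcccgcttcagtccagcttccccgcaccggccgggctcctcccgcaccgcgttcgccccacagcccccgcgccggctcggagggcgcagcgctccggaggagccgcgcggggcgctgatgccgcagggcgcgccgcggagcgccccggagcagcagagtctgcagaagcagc
Fgf10: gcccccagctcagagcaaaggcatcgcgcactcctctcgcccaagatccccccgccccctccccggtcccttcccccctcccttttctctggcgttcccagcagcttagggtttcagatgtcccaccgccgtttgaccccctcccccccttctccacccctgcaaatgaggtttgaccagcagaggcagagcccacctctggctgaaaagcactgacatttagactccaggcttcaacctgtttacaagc

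At Fgfr3 the 78 bases next to the start lay under the replicated peak. In the whole 300 base promoter window (250 bases upstream of the start and 50 after it) Fgfr3 held 26 CpG dinucleotides and 69.7% G and C. Fgfr4 had 20 CpG and Fgf18 had 47, a number reached by 1.83% of promoters, yet no replicated peak overlapped either window. Over all 21262 promoter windows of protein-coding genes, a replicated peak overlapped 64.4% of those with 15 or more CpG, 25.9% of those with 5 to 14 and 2.73% of those with fewer. Of the member promoters outside the CpG-rich class, Fgf10 had 10 CpG, Fgf7 had 11, Fgf9 had 12 and Fgfr2 had 4. The Fgf2 window had 24 CpG and no peak in either replicate.

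Motifs were searched on both strands of these windows as plain letters. The GC box GGGCGG, the site of SP and KLF factors, occurred in the windows of Fgf2, Fgf10, Fgf18, Fgfr3 and Fgfr4, and in 46.2% of all promoter windows. Fgfr3 and Fgfr4 each held 4 copies in 1 window. None of the 9 member windows held the AP-1 site TGANTCA (6.99% of all windows), the cAMP response element TGACGTCA (2.23%), the ETS site CCGGAAG (11.6%) or the TATA box TATAAA (12.6%). The retinoid half-site AGGTCA occurred at Fgf7 alone among the members, against 14.7% of all windows, and the CCAAT box CCAAT at Fgf7 and Fgfr3, against 38.2%. The E-box CANNTG was in the windows of Fgf7, Fgf9, Fgf10, Fgfr2, Fgfr3 and Fgfr4 (69.0% of all windows). The GATA site AGATAA was found at Fgf9 (9.65%), and the TEAD site GGAATG (13.6%) and the NFI half-site TTGGCA (13.1%) were found at Fgfr4. These matches are letters in a window and not sites of binding. Matches of different motifs may share bases.

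Among the ligands, the loci of Fgf2 and Fgf1 held 10 of the 12 replicated peaks. With each peak given to its nearest gene, 4 were counted for Fgf2 and 2 for Fgf1. Fgf2 encodes basic FGF, which leaves cells without a signal peptide, and spans chromosome 3 from 37348477 to 37410106. Its locus had 7 entries in A, 6 in B and 5 replicated peaks, a number that 10.2% of genes in its length bin reached. The best ranked, at 37419533 to 37420016, was enriched 18.9-fold over the caller's local background in A and 16.6-fold in B, percentiles 92.5 and 89.8 of the lists. That peak lies 9.43 kb past the gene at the listed starts of the neighbours Nudt6 and Spata5, so it is not assigned to Fgf2 by position. The remaining 4 replicated peaks lay inside Fgf2 and were of low to middle rank.

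Of those inside Fgf2, the peak at 37402266 to 37402652 was enriched 10.9-fold in A and 11.6-fold in B, with summits 4 bp apart. The peak nearest the start, 12.0 kb downstream of it, had 12.0-fold in A and 8.18-fold in B. The peak at 37409382 to 37409572, near the 3′ end, also lies in Nudt6, which overlaps Fgf2, and had 8-fold in A and 8.36-fold in B. The weakest, at 37399062 to 37399243, had 5.87-fold in A and 5.5-fold in B, percentiles 3.7 and 1.7, and its summits were 171 bp apart. Within 500 bp of the listed start there was no entry in either replicate. The entries seen in A alone nearest that start lay 5.56 kb upstream and 6.11 kb downstream, and 1 entry inside the gene was seen in B alone.

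Fgf7 encodes keratinocyte growth factor and lies on chromosome 2 from 126034658 to 126091185, inside the longer gene Fam227b. A had 2 entries and B had 1. The replicated peak at 126060648 to 126060947 lay 26.0 kb into the gene, enriched 13.0-fold in A but 7.52-fold in B, at percentiles 72.3 and 22.9. The other entry of A, 2.85 kb upstream of the start, was at percentile 1.5 of its list and had no partner in B. The start of Fgf7 itself had no entry.

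Fgf18, a ligand best known from bone and cartilage, lies on chromosome 11 from 33116970 to 33147400. Its locus had 2 entries in A and 2 in B, but only 1 pair overlapped. The replicated peak, at 33163051 to 33163362, was the strongest of all 22 in A, at 21.2-fold and percentile 96.1, and had 13.6-fold in B. It lies 15.7 kb upstream of Fgf18 and inside Npm1, which encodes nucleophosmin, and it was not counted when each peak was given to its nearest gene. Close to the start of Fgf18 each replicate had an entry that the other lacked. A had 1 at 401 bp upstream of the start, enriched 8.80-fold, and B had 1 at 1084 bp upstream, enriched 8.36-fold. Because they share no base, the Fgf18 start was not counted as replicated.

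Fgf9 and Fgf10 had no entry in A or B within their loci. Fgf9, which signals between mesoderm and epithelium in development, spans chromosome 14 from 58070671 to 58112854, and Fgf10, the mesenchymal ligand of lung and limb budding, spans chromosome 13 from 118714699 to 118792573. Loci without any entry made up 16% of genes in the length bin of Fgf9 and 13.8% in that of Fgf10, against 26.8% of all protein-coding genes. The closest replicated peak to Fgf9 was 71.3 kb away on the lower side, nearest to Micu2, and the closest on the higher side was 1088 kb away. For Fgf10 the distances were 327 kb and 617 kb, to peaks nearest Mrps30 and Nnt. With 50 kb on either side both genes still had no replicated peak. Peak lists do not give reads, so a weak signal below the caller's threshold cannot be seen in them.

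Fgf1 encodes acidic FGF, the ligand that binds all FGF receptors, and lies on chromosome 18 from 38838672 to 38929470, wholly inside Arhgap26. It had 8 entries in A, 5 in B and 5 replicated peaks. Each of the 5 lay within Arhgap26, and 3 also lay within the overlapping gene Gm5820. With peaks given to the nearest gene, 2 of the 5 went to Fgf1. Its listed start and strand are not used here, so positions are given from the ends of the gene. At the higher end a peak from 38928805 to 38929010 lay 460 bp inside the gene, with 8.06-fold in A and 7.57-fold in B. A stronger peak from 38930432 to 38930718 lay 962 bp outside the same end, with 14.1-fold in both replicates. Just beyond the lower end, at 38836923 to 38837232, 1.44 kb outside, a peak had 14-fold in A and 11.8-fold in B, and 1 inside the gene at 38906400 to 38906684 had 13.7-fold and 12.5-fold. The weakest of the 5, 2.52 kb inside the lower end, had 9.01-fold and 6.74-fold. The 3 entries of A without a partner in B were at percentiles 10.4, 26.3 and 46.5.

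**Figure D2:**
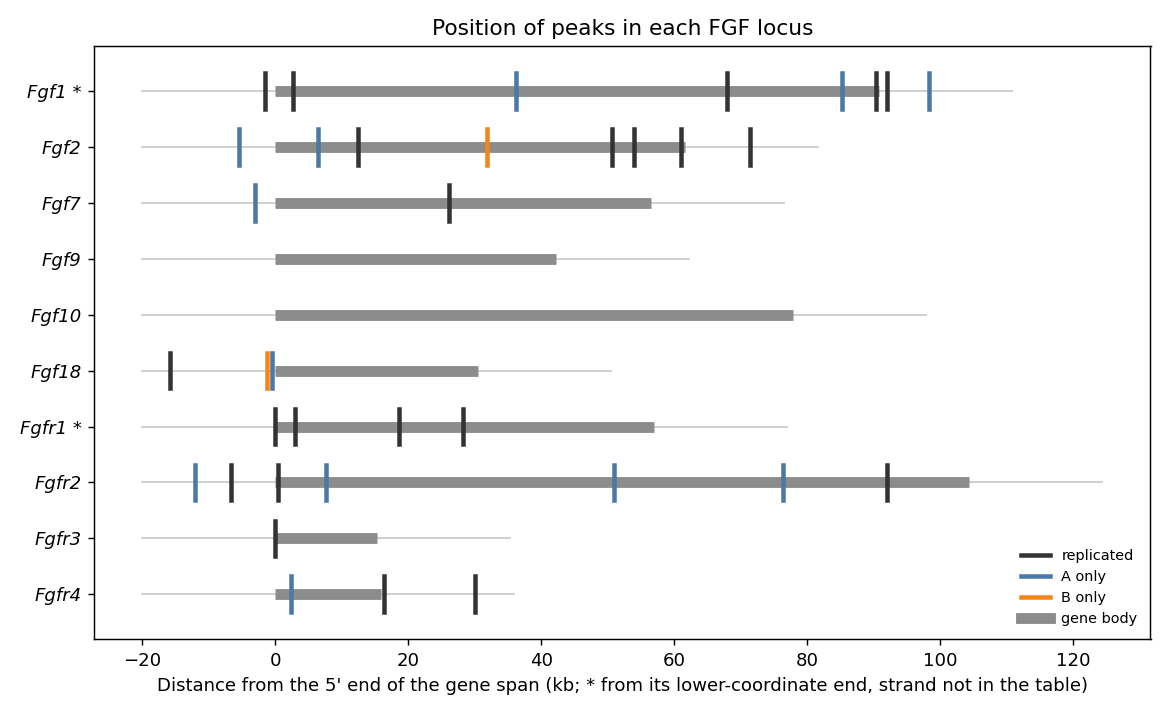
Position of each entry along the 10 loci, with distance in kb from the 5′ end of the gene span (from the lower-coordinate end for Fgf1 and Fgfr1). Thick bars are gene bodies, thin lines the 20 kb flanks, and ticks are replicated peaks or entries of A or B alone. The replicated peaks of Fgfr1 all lie in its lower-coordinate part, and the bodies of Fgf9, Fgf10, Fgf18 and Fgfr4 have none.

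All 4 receptor genes had a replicated peak, and at all 4 of them, against 1 of the 6 ligand genes (Fgf1), a replicated peak lay within 500 bp of an end of the gene. In all protein-coding genes this share was 39.2%. It is not given by gene length, and the members are longer, with a median of 56.7 kb against 17.2 kb. The ligand count is sensitive to the window, since a replicated peak inside Fgf2 lay 534 bp from its end. No replicated peak of a receptor locus lay inside another protein-coding gene, whereas 9 of the 12 at ligand loci did. This follows in part from the gene map. Fgf1, with 5 of the 9, lies wholly inside Arhgap26, and Fgf7, with 1, lies inside Fam227b. The share over all replicated peaks was not computed. Per 100 kb of locus, the median receptor gene had 2.83 replicated peaks, the median ligand gene 1.23 and the median protein-coding gene 1.58. The ligands spread widely on this measure, from 0 at Fgf9 and Fgf10 to 3.82 at Fgf1 and 4.92 at Fgf2.

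Fgfr1, the receptor kinase gene typical of mesenchymal cells, spans chromosome 8 from 25518759 to 25575718 and had 4 entries in A and 4 in B, all of them in replicated pairs. No other member with over 1 replicated peak had every entry of both lists matched. A number of 4 or more was reached by 11.5% of genes in its length bin. The peak over its lower end, at 25518605 to 25518839, was enriched 13.4-fold in A and 10.9-fold in B, with summits 6 bp apart. The strongest lay 28.0 kb into the gene, at 25546802 to 25547266, with 14.2-fold in A and 14.9-fold in B, and was 465 bp wide. The peaks at 2.77 kb and 18.5 kb from that end had 10.4-fold and 10.1-fold in A and 10.9-fold each in B. All 4 ranked above the 50th percentile in both lists and were still replicated among the upper 50% of entries by −log10 q.

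Fgfr2, whose splice forms receive FGF7 and FGF10 in epithelia and other ligands in mesenchyme, spans chromosome 7 from 130162451 to 130266808. Its entries matched less well, with 7 in A, 3 in B and 3 replicated. The strongest was upstream: at 130273312 to 130273700, 6.50 kb before the start, it had 18.6-fold in A and 14.7-fold in B, percentiles 91.7 and 83.5. At the start, a peak from 130266182 to 130266540 lay 268 bp into the gene, past the CpG-poor promoter printed above, with 8.62-fold in A and 12.2-fold in B. This was 1 of 8 replicated peaks of the members that were more enriched in B. The third, 91.8 kb into the gene, had 7.65-fold in A and 7.01-fold in B. The 4 entries of A alone were weak, at percentiles 1.9 to 14.2.

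Fgfr3, best known as a brake on growth of cartilage, had a single replicated peak and no other entry in a locus of 55.3 kb. It covered the start on chromosome 5, at 33721646 to 33721799, was 154 bp wide, the narrowest of the 22, and had 7.16-fold in A and 9.15-fold in B, percentiles 16.5 and 45.4. The second listed start of Fgfr3, inside the gene, was not covered by it. Fgfr4, the receptor of hepatocytes for FGF15, had the opposite arrangement. Its start, on chromosome 13 at 55152818, had no entry within 500 bp, and the nearest, 2.30 kb into the gene, was seen in A alone with 8.54-fold. Both replicated peaks of Fgfr4 lay past its 3′ end. The closer, 241 bp beyond it at 55169000 to 55169427, had 12.1-fold in A and 7.42-fold in B. The farther, 13.9 kb beyond it, had 14.1-fold and 12.1-fold.

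Since Fgfr4 is known as a hepatocyte gene, the hepatocyte markers are given beside it, and their part in the peaks past its 3′ end was not tested. Of the 6 hepatocyte markers (Alb, Apoa1, Ttr, Cps1, Cyp2e1 and Hnf4a), 2 had a replicated peak in the locus and 0 of the 4 with a listed start had one there, where all protein-coding genes had 64.9% and 42.9%. The stellate markers Lrat, Reln, Des, Pdgfrb, Rgs5, Colec11, Ecm1, Hand2, Hgf and Ngfr had a replicated peak in 10 of 10 loci and at 9 of 9 listed starts. The markers of the other 6 cell classes (hepatocyte, Kupffer and myeloid, sinusoidal endothelial, cholangiocyte, lymphocyte, and smooth muscle and portal fibroblast) had one in 15 of 32 loci (46.9%) and at 0 of 19 listed starts. These lists were chosen with earlier results of these data known, so the counts are a description and no test of cell identity. The share of loci differed among the classes, from 1 of 5 for cholangiocytes and 2 of 6 for Kupffer and myeloid cells to 3 of 6 for sinusoidal endothelium, 3 of 4 for lymphocytes and 4 of 5 for smooth muscle and portal fibroblasts. Acta2, Alb, Adgre1, Ptprc, Epcam, Cd3e and Erg had none in the locus.

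The strength of replicated peaks at the FGF loci was close to that of all replicated peaks. The 22 replicated peaks had a median of 12.1-fold in A, from 5.87 to 21.2, and 10.9-fold in B, from 5.5 to 16.6, where all 23452 replicated peaks had medians of 11.9-fold and 10.4-fold. Of the 22, 12 ranked above the 50th percentile in both lists and 6 below it in both. The order of the folds was alike in A and B, with a Spearman coefficient of 0.78 over the 22 peaks, and 0.68 over all replicated peaks. These coefficients are descriptions, since the peaks share 2 replicates. Of the 34 entries of A in the loci, 64.7% were replicated (95% Wilson interval 47.9 to 78.5), against 64.1% of all 36577 entries (63.6 to 64.6), an interval that covers counting error only. The 12 entries of A alone had a median of 6.97-fold, and none passed 11.3-fold.

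**Figure D3:**
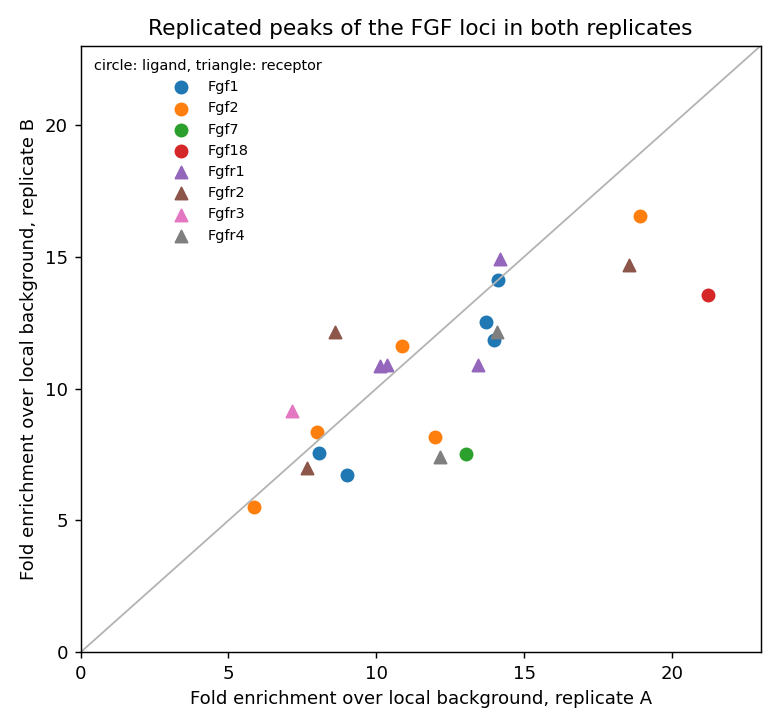
Fold enrichment of the 22 replicated peaks over the caller's local background in replicate A (horizontal) and replicate B (vertical), with circles for ligand loci, triangles for receptor loci and the line of equal values. The Fgf18 peak inside Npm1 is highest in A at 21.2-fold, and the Fgf2 peak at the Nudt6 and Spata5 starts is highest in B at 16.6-fold.

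Around the members, the FGF pathway was read from 6 lists of 76 placed genes. Of these, 58 had at least 1 replicated peak in the locus (76.3%) and 30 of 55 had one at a listed start (54.5%). All protein-coding genes had 64.9% and 42.9%, but the pathway genes are longer, with a median of 33.8 kb against 17.2 kb. Averaged over the length bins of the pathway genes, the shares were 70.3% in the locus and 46.8% at a start, and the same average is called the length share of a list below. The list of 16 other ligand genes, which includes intracellular homologous factors such as Fgf12, had the lowest share of the 6 lists. Among them, 6 had a replicated peak in the locus (37.5%, length share 65.1%) and 0 of 11 had one at a listed start (length share 39.8%). Fgf12, which encodes an intracellular FGF homologous factor, had 4, all in its 595 kb body. Fgf11, Fgf22 and Fgf17 had 2 each, and none of these lay in the gene body. The longest without any entry were Fgf14 and Fgf13, also homologous factors. Fgf15, the gut hormone gene, had 1 outside its body, and the hepatokine gene Fgf21 had 1 entry in B alone.

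The cell-surface layer was read as its proteins and the enzymes of their sugar chains. Among 16 co-receptors and binding proteins, 10 had a replicated peak in the locus (62.5%, length share 71.8%) and 4 of 12 at a listed start (33.3%, length share 48.2%). The glypican gene Gpc6 had 7, all in its 1055 kb body, the syndecan genes Sdc4 and Sdc2 had 3 and 2, and Fgfbp3, which encodes an FGF carrier, had 2. Klb, the beta-Klotho gene, had 2, both outside the gene, and its start had none. Kl and Flrt2 had no entry. Of 10 heparan sulfate enzyme genes, of median length 104 kb, 9 had a replicated peak in the locus (90%, length share 74.4%) and 5 of 7 at a listed start (71.4%, length share 48.5%). Ext1 and Ext2, whose products polymerise the chain, had 8 and 4, the sulfotransferase gene Ndst1 had 7 and Hs6st1 had 2, while Hs6st2 had none. The gene body held 8 of those at Ext1, 3 at Ext2, 5 at Ndst1 and 0 at Hs6st1.

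In the lists of genes that act inside the receiving cell, most listed starts were open. All 18 adaptor and MAP kinase genes had a replicated peak in the locus (length share 72.8%), and 12 of 14 had one at a listed start (85.7%, length share 49.5%). Shc1 and Gab1, both adaptors, had 6 each, and Grb2 and Frs2 had 3 each. In the gene body lay 2 of those of Shc1, 5 of Gab1 and 2 each of Grb2 and Frs2. All 9 placed feedback inhibitor genes had one in the locus (length share 70.9%), and 7 of 8 had one at a listed start (87.5%, length share 48.0%). Spred2, an inhibitor of RAF activation, had 6, Cbl, a ubiquitin ligase, and the Sprouty gene Spry1 had 4 each, and Spred3 had 3. Of these, 5 at Spred2, 2 each at Cbl and Spry1 and 1 at Spred3 lay in the gene body. Among 7 target genes, 6 had one (length share 66.3%) and 2 of 3 had one at a listed start. There were 4 each at Fos, Etv5, Egr1 and Etv1 and none at Etv4. The gene body held 1 of those at Fos, 3 at Etv5, 1 at Egr1 and 2 at Etv1. Genes such as Grb2 and Fos are also used by other receptors, so their peaks are not particular to FGF signalling.

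**Figure D4:**
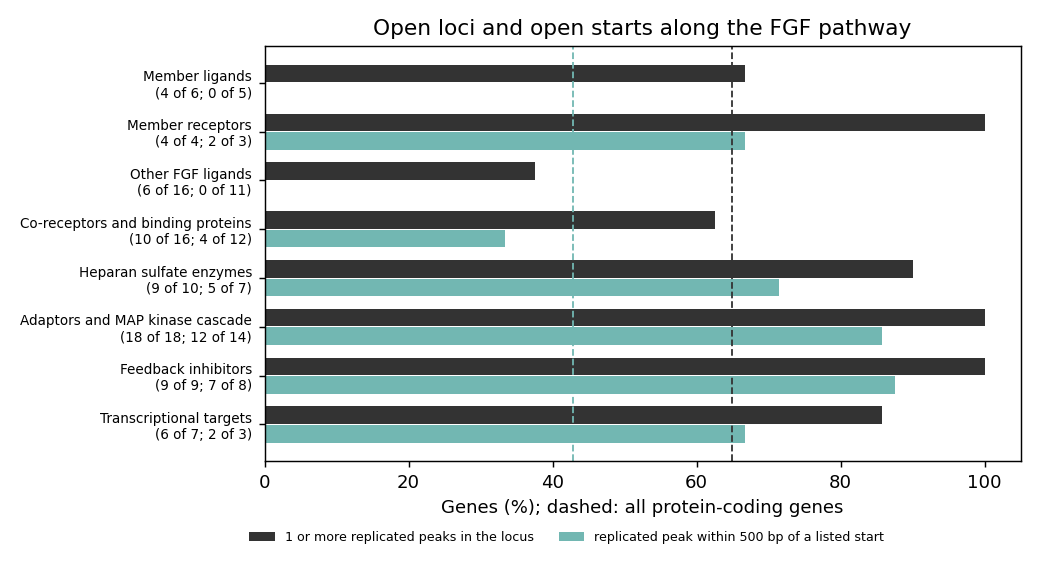
Share of genes with at least 1 replicated peak in the locus (dark) and with a replicated peak within 500 bp of a listed start (light) for the member ligands, the member receptors and 6 lists of the pathway, with counts in brackets. Dashed lines give all protein-coding genes, 64.9% and 42.9%. Replicated peaks lay at 0 of 5 listed starts of member ligands. They lay at 0 of 11 in the list of other ligands, which includes intracellular homologous factors.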

How the data were processed

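ATAC-seq peak lists of 2 replicates of 1 group were used. The submitters' processing notes name MACS2, HOMER, STAR 2.7.0, Picard, SAMtools and bedtools, without roles, and mm10. Handling of the Tn5 offset is not stated by the sources used. Per peak, the deposited values are a fold enrichment (a linear ratio over local background), −log10 p and −log10 q values, a score and a summit offset. No value is scaled between the lists, and no read counts were used, so depth is unknown. A had 36577 entries and B 28794, called per replicate.

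Computed here with Python 3.11.15, numpy 2.4.6 and pandas 2.3.3: overlaps of at least 1 bp (the entry of A gave the coordinates, and the strongest overlapping entry of B its value), 1-based positions, and counts per locus over 21775 protein-coding genes of a RefSeq table (GRCm38.p6). A further 108, Spry3 among them, were left out because the table places them before 3 Mb on a chromosome other than Y, where neither list has an entry. All 10 members and the other 76 pathway genes matched by symbol. Starts came from a RefSeq promoter table, which listed 17491 of the genes and 8 members. Functions were tested on simulated data. Named pathway genes are up to 4 per list with the most replicated peaks and up to 2 with none, longest first. Fgf15, Fgf21, Klb and Ccnd1 were named after their values were seen, as were the cell type markers listed with none. The members and lists were chosen with earlier results of these data known. Alternatives were other overlaps, thresholds, flanks and windows, nearest-gene assignment and each replicate alone.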

Additional observations from a re-analysis of the deposited data

How the results depend on the processing

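The count of 8 open loci stayed between 6 and 8 under every alternative run, and Fgf9 and Fgf10 had 0 in each. The share of all protein-coding genes with a peak moved more widely, from 41.8% with the 10000 highest to 73.9% with 50 kb. That share was not computed for nearest-gene assignment. The 22 replicated peaks fell to 12 with entries above the median −log10 q and to 7 with the 10000 highest per list, rose to 35 with 50 kb on either side, and ranged from 24 to 34 with 1 replicate alone. They numbered 15 in the gene bodies alone and 17 with each peak given to its nearest gene. The 2 open starts became 0 under both stricter thresholds, 5 when either gene end counted, and 2 to 3 with 1 replicate alone. The share of all protein-coding genes with an open start was not recomputed under the stricter thresholds. The median of 1.5 per member became 3 with 50 kb and 2 to 2.5 with 1 replicate alone. The 58 pathway genes became 37 with the 10000 highest, when the share of all protein-coding genes was 41.8%. Of 90 recomputed counts for single members, 64 stayed within 1.5 times or at 0, and 26 moved. All counts of Fgf9 and Fgf10, which were 0 throughout, are among the 64. No paired analysis was possible because there was 1 group. Depth is unknown, so a locus without peaks may hold signal under the callers' threshold.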
